A study of Caenorhabditis elegans with 15 samples.

Results

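This account compares the intestines of gas-1 cest-2.2 OE worms with those of wild-type worms of Caenorhabditis elegans. It uses the 10 libraries whose strain labels name these groups, 5 of each, of the 15 libraries in the series. Wild type carried no named allele. The OE strain (titled BAN329) carried gas-1(fc21), a mutation in the mitochondrial respiratory chain, and overexpressed cest-2.2, so the comparison holds both changes at once. The construct and promoter that drive cest-2.2 are not given in the sources used here. Worms of both groups were 5 days old and fed OP50 bacteria, and each library pooled 20 dissected intestines. The remaining 5 libraries, from gas-1(fc21) mutants without the overexpression, were in the fit and their values are given beside those of OE. They share the wild-type libraries with one comparison and the OE libraries with the other.

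The gene gas-1 encodes a core subunit of complex I, the NADH dehydrogenase that feeds electrons into the respiratory chain. The gene cest-2.2 belongs to the carboxylesterase family, enzymes that cleave ester bonds in lipids and foreign compounds. The worm intestine digests food, stores and breaks down fat, makes yolk for the oocytes, detoxifies, and secretes antimicrobial proteins.

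Levels are CPM, the usual depth-scaled read abundance, here estimated counts over the TMM-adjusted library total. Errors of levels are SD with n = 5, and a log2 fold change is followed by its SE from the quasi-likelihood fit of edgeR. A gene was called when its Benjamini-Hochberg adjusted p over all tested genes was under 0.05, and every adjusted p below comes from that test unless another tool is named. Nothing in the labels says that the 5 libraries of a group came from separate cultures, so the p-values measure the spread between these samples, which may be technical. Library totals ran from 12182697 to 40045140 estimated counts in wild type and from 12785262 to 45896053 in OE.

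The libraries also differed in the levels of tissue marker genes. The mean log2 CPM of 26 intestine markers was 6.1 to 7.26 in wild type, 6.62 in OE replicate 2, and 7.54 to 8.09 in the other 4 OE libraries. Body wall muscle markers averaged 5.95, 5.07 and 6.44 for replicates 1, 2 and 4 of wild type, 3.21 and 4.03 for replicates 3 and 5, and between 2.16 and 4.29 for OE. Germline markers lay between 6.2 and 6.48 in wild type and between 5.89 and 6.55 in OE, and oocyte and early embryo markers between 8.11 and 8.48 and between 7.55 and 8.52. OE replicate 2 had the highest germline and oocyte marker means of the OE group. In pooled tissue, fewer cells of a type and less RNA per cell cannot be told apart. The part of tissue makeup in the results below was not tested. The covariate fits named below cannot separate it from a strain effect within the intestine, since the intestine marker means differed between the groups. Of the 26 intestine markers, 15 are also in other lists described below.

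**Figure D1:**
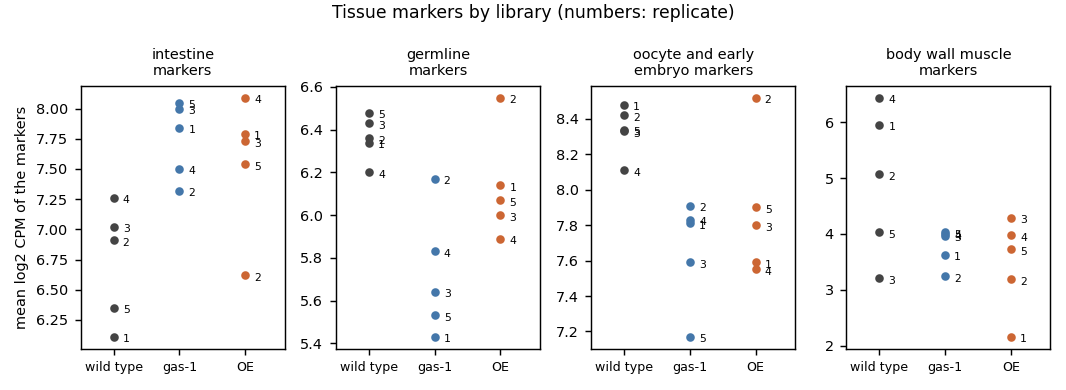
Mean log2 CPM of 4 sets of tissue markers in each library; each point is a library and its number is the replicate. The wild-type replicates 1, 2 and 4 lie highest for muscle markers, and OE replicate 2, at 6.62, lies lowest of the OE libraries for intestine markers.

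The gene that OE worms were labelled as overexpressing, cest-2.2 (WBcel235, chromosome V, 14171639 to 14175355, minus strand), was higher in OE. Wild-type replicates 1 to 5 measured 21.59, 42.95, 64.27, 53.33 and 28.86 CPM, and OE replicates measured 133.3, 60.87, 110.2, 179.3 and 122.1 CPM. OE replicate 2 fell just below the highest wild-type library and the other 4 OE libraries were above every wild-type library. The means were 42.2 ± 17.4 and 121 ± 42.7 CPM, a log2 fold change of 1.52 ± 0.34 (adjusted p = 0.0112, exact two-sided permutation p = 0.0159). In the gas-1 libraries it averaged 56.1 ± 24.2 CPM, and the change from gas-1 to OE of 1.11 ± 0.33 on the log2 scale was not called (adjusted p = 0.109). With the intestine marker mean as a covariate, chosen after the data were seen, the OE against wild-type change of cest-2.2 was 0.64 (adjusted p = 0.271).

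Its neighbour in the same family, cest-2.1, also rose, from 20.0 ± 7.47 to 44.9 ± 13 CPM, with a log2 fold change of 1.16 ± 0.32 (adjusted p = 0.0327, exact two-sided permutation p = 0.0238). That call was lost when wild-type replicate 1, 2 or 5 or OE replicate 1, 3, 4 or 5 was left out (adjusted p of 0.0509 to 0.0805). The third member, cest-2.3, averaged 0.0746 CPM in wild type and 1.11 CPM in OE and was too low to test. Reads that match several paralogs are shared out between them by the authors' quantification. How alike the cest-2 sequences are was not examined, so the split within the cest-2 genes is uncertain.

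The mutated gene itself, gas-1 (chromosome X, 15586786 to 15590397, minus strand), was more abundant in OE, at 140, 89.9, 132, 150 and 92.0 CPM against 66.0, 65.5, 72.1, 87.7 and 47.8 CPM in wild type. The 5 OE libraries were all above the 5 of wild type. The log2 fold change was 0.83 ± 0.19 (adjusted p = 0.0144, exact two-sided permutation p = 0.00794, the smallest that 5 against 5 can give). The gas-1 mutants without the overexpression averaged 124 ± 20.8 CPM, close to the OE mean of 121 ± 28.1 CPM. The level of this transcript does not show the lesion, and 26 bases of its exons overlap K09A9.6 on the opposite strand, whose reads cannot be separated in libraries without strand information.

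Of 10585 genes tested, 988 (9.33%) were called between OE and wild type. Of these, 751 (7.09%) were higher in OE and 237 (2.24%) were lower, and 577 of the higher and 188 of the lower genes changed at least 2-fold. The median log2 fold change over all tested genes was -0.04, that of the called higher genes 1.28, and that of the called lower genes -2.57. The 5 libraries of each group did not overlap for 679 tested genes (6.41%), and 406 genes were both called and not overlapping. On log2(TPM + 1) values with limma, 491 genes were higher and 1106 lower, since the median over all genes moved to -0.37 there. After TMM scaling of the same TPM values, an alternative chosen after the data were seen, 817 were higher and 316 lower. The changes below are therefore relative to the bulk of the genes. Each list count below is to be read beside the shares of 7.09% higher and 2.24% lower over all tested genes.

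**Figure D2:**
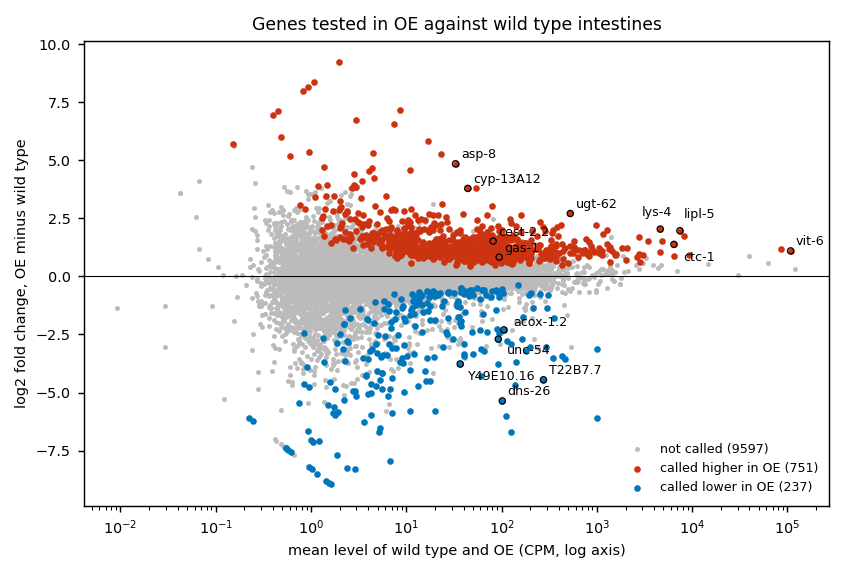
Log2 fold change of OE against wild type (vertical axis) against mean level (horizontal log axis, CPM) for the 10585 tested genes; red and blue points are the 751 genes called higher and the 237 called lower. Many of the called higher genes are abundant, among them lipl-5, ctc-1, lys-4 and vit-6.

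Transcripts of the mitochondrial genome were higher in OE. Of the 12 protein genes it encodes, 10 were called higher and none lower, with a list median log2 fold change of 1.14, and 0.74 on the TPM scale. The cytochrome c oxidase subunit gene ctc-1 measured 2905, 3358, 4084, 3904 and 3582 CPM in wild type and 8398, 5729, 9659, 11623 and 11140 CPM in OE. No OE library reached down to the wild-type range. Its log2 fold change was 1.38 ± 0.23 (adjusted p = 0.0019). The cytochrome b gene ctb-1 rose by 1.33 ± 0.23 (adjusted p = 0.00265) and the ATP synthase subunit gene atp-6 by 1.06 ± 0.18 (adjusted p = 0.002) on the log2 scale. Mitochondrially encoded transcripts made up 0.827 ± 0.12% of wild-type counts and 1.45 ± 0.33% of OE counts, with ranges of 0.639 to 0.975% and 1.25 to 2.02%. In the gas-1 mutants the share was 1.24 ± 0.177%. Without OE replicate 2 the list median was 1.33, and without wild-type replicates 1, 2 and 4 it was 1.06. It was 0.89 with the intestine covariate, where 2 genes were called higher.

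Nuclear genes of the respiratory chain differed less. Of 45 tested members of complexes II to V, 13 were called higher and none lower (median 0.45, and 0.08 on the TPM scale). None was called with the intestine covariate, and the median was 0.29. The complex III core gene ucr-2.1 rose from 44.5 ± 10.3 to 87.2 ± 20.8 CPM (log2 0.97 ± 0.20, adjusted p = 0.00789), the cytochrome c gene cyc-2.1 from 82.1 ± 15.2 to 143 ± 27.8 CPM (0.80 ± 0.17, adjusted p = 0.00864), and the ATP synthase gene atp-1 from 1524 ± 254 to 2505 ± 372 CPM (0.72 ± 0.16, adjusted p = 0.0121). The complex I list leaves out gas-1, which was called higher as given above. It had 4 of 37 members called higher and none lower, beside 7.09% and 2.24% of all tested genes. Its median of 0.34 turned to -0.04 on the TPM scale. These were nuo-2, ndub-10, ndub-11 and nuo-5, and each lost its call without OE replicate 1 or 3 (adjusted p = 0.114, 0.0711, 0.0551 and 0.0991 without replicate 1). All except ndub-10 also lost it without other single libraries of the 10 compared. The gas-1 paralog nduf-2.2 averaged 82.8 ± 9.60 CPM in wild type and 82.6 ± 29.9 CPM in OE.

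Genes of the mitochondrial unfolded protein response, the programme by which worms raise mitochondrial chaperones and proteases, had 2 of 16 members called higher, timm-23 and clpp-1, and none lower. The list median of 0.34 turned to -0.04 on the TPM scale. The chaperone genes that usually report on this response, hsp-6 and hsp-60, averaged 46.5 ± 7.09 and 363 ± 45.8 CPM in wild type and 57.8 ± 14.4 and 468 ± 59.7 CPM in OE, and neither was called (adjusted p = 0.293 and 0.137). The call of clpp-1 rested on all libraries but OE replicate 2 and wild-type replicate 3, since leaving out any other of the 10 raised its adjusted p to between 0.056 and 0.0928.

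In the citrate and glyoxylate cycle, 7 of 25 genes were called higher and none lower, with a median of 0.33 that was -0.03 on the TPM scale and 0.02, with 1 call, with the intestine covariate. Citrate synthase, cts-1, measured 313, 425, 317, 399 and 324 CPM in wild type and 975, 534, 884, 928 and 774 CPM in OE. The groups were apart by more than 100 CPM even though OE replicate 2 was the lowest of its group. It rose by 1.2 ± 0.19 on the log2 scale (adjusted p = 0.00145) and was called under all 30 alternatives. The cytosolic aconitase gene aco-1 rose from 212 ± 80.6 to 531 ± 162 CPM and the succinyl-CoA ligase gene sucl-1 from 49 ± 6.48 to 95.6 ± 26.3 CPM (adjusted p = 0.0104 and 0.00597).

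The list of fatty acid synthesis and desaturation had 23 tested genes, not all of them enzymes. Of these, 11 were called higher and 1 lower, with a median log2 fold change of 0.81 (0.41 on the TPM scale). With the intestine covariate 1 was called higher and the median was 0.20, and without wild-type replicates 1, 2 and 4 none was called and the median was 0.87. The delta-12 desaturase gene fat-2 measured 519, 785, 764, 961 and 547 CPM in wild type and 2125, 969, 2214, 2234 and 1767 CPM in OE. OE replicate 2 was only just above the highest wild-type library, and the other 4 were well above it. It rose by 1.38 ± 0.25 on the log2 scale (adjusted p = 0.00373), and the gas-1 mutants stood at 1888 ± 476 CPM beside 1862 ± 534 CPM in OE. The elongase gene elo-2 rose by 1.13 ± 0.26, the 3-hydroxyacyl-CoA dehydratase gene hpo-8 by 1.01 ± 0.22 and the stearoyl-CoA desaturase gene fat-6 by 1.14 on the log2 scale (adjusted p = 0.0146, 0.0115 and 0.0149).

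The 1 called fall in that list, the nuclear receptor gene nhr-80, came from a single library. It measured 9788 CPM in wild-type replicate 1 and 69.5, 18.3, 19 and 10.6 CPM in wild-type replicates 2 to 5, against 13.3 to 45.5 CPM in OE. Its log2 fold change of -6.10 (adjusted p = 0.0283) became 0.03 (adjusted p = 0.982) without wild-type replicate 1, and its call was also lost without OE replicate 1, 3, 4 or 5. It is named here because of these values.

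Lysosomal acid lipases, which break down stored fat inside lysosomes, included some of the clearest rises. The most abundant, lipl-5, measured 1997, 3098, 3365, 4519 and 2137 CPM in wild type. In OE it measured 13480, 6127, 12675, 15357 and 11718 CPM. The lowest OE library was above the highest wild-type library. For lipl-5 the log2 fold change was 1.97 ± 0.28 (adjusted p = 0.000425), beside 0.89 ± 0.27 from wild type to gas-1 (adjusted p = 0.0282) and 1.09 ± 0.27 from gas-1 to OE (adjusted p = 0.0532).

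The related genes lipl-3 and lipl-1 rose from 10.7 ± 3.77 to 69.0 ± 28.4 CPM and from 4.91 ± 2.86 to 26.2 ± 8.46 CPM (log2 2.68 ± 0.36 and 2.44 ± 0.44, adjusted p = 0.000317 and 0.00313). The low-abundance lipl-4 rose from 1.71 ± 1.01 to 8.16 ± 2.89 CPM (adjusted p = 0.00914). With hosl-1, the worm hormone-sensitive lipase homologue (log2 0.84, adjusted p = 0.0267, lost without wild-type replicate 1 or OE replicate 3 or 4 at 0.0509, 0.0719 and 0.0586), these made 5 called rises among the 15 lipase and lipolysis genes tested. Both called falls, lips-10 and lips-14, were lost on leaving out any of 7 or more single libraries. The list median was 0.07, and -0.30 on the TPM scale. With the intestine covariate 2 genes were called higher and none lower, and the median was 0.13. Those 2 were lipl-3 and lipl-5 (adjusted p = 0.00122 and 9.08e-06), while lipl-1 and lipl-4 were not called there (0.0715 and 0.241).

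In triglyceride and phospholipid synthesis, 4 of 30 genes were called higher and 1 lower, beside 7.09% and 2.24% of all tested genes. The list median of 0.21 turned to -0.18 on the TPM scale. The fall was in acl-4, a glycerol-3-phosphate acyltransferase gene of glycerolipid synthesis. It measured 73.6, 103, 108, 121 and 75.8 CPM in wild type and 33.9, 23.4, 27.4, 42.1 and 27.7 CPM in OE. All OE libraries were below all wild-type libraries, the log2 fold change was -1.64 ± 0.19 (adjusted p = 0.000105), and it was called under all 30 alternatives. The gas-1 mutants had 28.1 ± 3.29 CPM, close to OE. Among the rises, acl-7, related to the acyltransferase that starts ether lipid synthesis in peroxisomes, went from 30.1 ± 8.90 to 84.8 ± 27.7 CPM and the lipin gene lpin-1, a phosphatidate phosphatase, from 198 ± 45.2 to 349 ± 77.9 CPM (adjusted p = 0.00246 and 0.0154).

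Peroxisomal beta-oxidation, which shortens very long fatty acids and the side chains of ascaroside pheromones, had 5 of 19 genes called higher and 1 lower, with a median of 0.85 (0.43 on the TPM scale). The median turned to -0.03 with the intestine covariate, where 1 gene was called higher and 1 lower. The fall was in acox-1.2, encoding an acyl-CoA oxidase, which measured 128, 171, 203, 239 and 137 CPM in wild type and 41.4, 23, 34.9, 48.2 and 31 CPM in OE. The highest OE library was well below the lowest wild-type library. The log2 fold change of acox-1.2 was -2.3 ± 0.22 (adjusted p = 2.55e-05), beside -3.0 ± 0.23 from wild type to gas-1 (adjusted p = 1.21e-06) and 0.70 ± 0.22 from gas-1 to OE (adjusted p = 0.122). The peroxisomal transporter gene pmp-1 rose from 19.7 ± 5.04 to 62.1 ± 19.9 CPM (adjusted p = 0.00145), and daf-22, the thiolase gene of the last step, from 73.1 ± 17.3 to 144 ± 36.8 CPM (adjusted p = 0.021, lost without OE replicate 1 or 4 at 0.0591 and 0.0502).

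Lipid binding proteins were split, with 5 of 17 called higher and 5 lower. The carrier gene lbp-6 rose from 51.17 ± 12.31 to 125.7 ± 39.31 CPM (adjusted p = 0.00295). The secreted carrier gene lbp-2 measured 292, 253, 4.66, 477 and 56.1 CPM in wild type and 1.75 to 4.89 CPM in OE (log2 -5.99 ± 0.89, adjusted p = 0.000905). Wild-type replicates 1, 2 and 4, with the highest muscle marker means, also had the most lbp-2, and replicate 3 lay inside the OE range. The other called falls were lbp-3, far-1, far-2 and far-6, and each lost its call without wild-type replicate 1 (adjusted p = 0.0899, 0.0511, 0.121 and 0.0851) and without OE replicate 4 (0.0979, 0.0518, 0.113 and 0.0707). The list median of -0.57 became 0.36 without wild-type replicates 1, 2 and 4.

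Yolk protein genes, whose products are carried to the oocytes, took a large share of the counts. It was 19.2 to 34.8% in wild type (mean 27.4 ± 6.1%) and 26 to 44.4% in OE (35.5 ± 6.55%), so the groups overlapped. Of 6 vitellogenin genes, vit-2 and vit-6 were called higher, at 52703 ± 23113 and 68724 ± 30833 CPM in wild type and 118060 ± 48335 and 147411 ± 61615 CPM in OE (adjusted p = 0.034 and 0.0434). Each of these calls was lost on leaving out any of 7 single libraries, wild-type replicate 1, 2 or 5 or OE replicate 1, 3, 4 or 5, with adjusted p of 0.0504 to 0.103 for vit-2 and 0.0578 to 0.131 for vit-6. The list median of 0.75 became -0.23 with the intestine marker covariate.

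**Figure D3:**
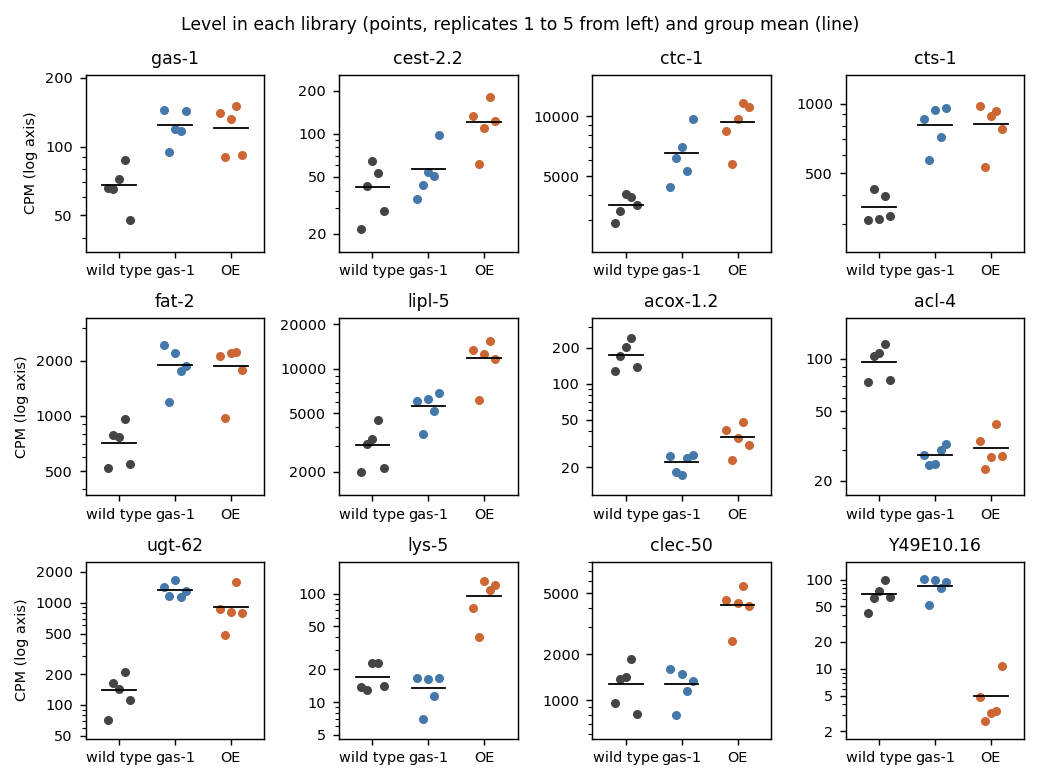
Level of 12 genes in each library (points, CPM on a log axis, replicates 1 to 5 from left to right) with the group mean (line) for wild type, gas-1 and OE. The genes cts-1, fat-2 and acl-4 stand at like means in gas-1 and OE, while lys-5, clec-50 and Y49E10.16 stand at like means in wild type and gas-1 and apart in OE.

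Detoxification enzymes included many of the largest rises. Cytochrome P450s, which oxidise foreign and endogenous compounds, had 13 of 59 genes called higher and 2 lower, with a median of 0.73 (0.03 on the TPM scale, -0.04 with the intestine marker covariate). The gene cyp-13A12 measured 2.44, 6.55, 6.53, 11.8 and 2.62 CPM in wild type and 62.1, 42.8, 74.4, 154 and 78.1 CPM in OE. That is a log2 fold change of 3.79 ± 0.42 (adjusted p = 7.08e-05), with the groups far apart. The gas-1 libraries measured 107 ± 11.4 CPM. The gene cyp-33C8 rose by 3.79 ± 0.63 on the log2 scale from 7.33 ± 5.85 CPM (adjusted p = 0.00214), to 101 ± 60.6 CPM in OE beside 281 ± 165 CPM in gas-1. The falls were in cyp-35A3, from 55.4 ± 18.23 to 16.42 ± 7.42 CPM (adjusted p = 0.00979), and in cyp-14A3, from 3.10 ± 4.06 CPM to no count in any OE library (adjusted p = 0.012). Wild-type replicate 1 had 10.3 CPM of cyp-14A3 against 0.628 to 2.24 CPM in the other wild-type libraries (adjusted p = 0.0315 without it). Without wild-type replicates 1, 2 and 4 neither fall was called (0.105 and 0.188). The call of cyp-35A3 was also lost with the muscle covariate (0.0559) and that of cyp-14A3 with the intestine covariate (0.0896).

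Of the UDP-glucuronosyltransferases, which attach sugars to such compounds for export, 13 of 54 were called higher and 2 lower, with a median of 0.54 that became 0.08 on the TPM scale and -0.28 with the intestine marker covariate. The most abundant of those named, ugt-62, measured 70.99, 165.1, 141.7, 208.7 and 112.9 CPM in wild type and 860.4, 486.9, 813.6, 1602 and 797.7 CPM in OE. All OE libraries were above the wild-type range, and the log2 fold change was 2.71 ± 0.31 (adjusted p = 0.000111). The genes ugt-19 and ugt-2 rose by 3.12 ± 0.39 and 2.63 ± 0.33 on the log2 scale (adjusted p = 0.000257 for each). Against this direction, ugt-41 fell from 72.4 ± 28.9 to 7.37 ± 4.57 CPM (adjusted p = 0.000317), and ugt-63 from 13.5 ± 12.5 to 0.0636 ± 0.0895 CPM. In wild type, ugt-63 measured 24.9, 12, 0.141, 27.7 and 2.79 CPM. It was highest in replicates 1, 2 and 4, which had the highest muscle marker means, and replicate 3 lay inside the OE range. Its call was lost without those 3 libraries (adjusted p = 0.316) and with the muscle (0.132) and intestine (0.0542) covariates.

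Glutathione S-transferases had 10 of 28 genes called higher and none lower, with a median of 0.77 (0.33 on the TPM scale). With the intestine covariate 1 was called higher and the median was 0.24. Examples were gst-38, from 1.67 ± 1.02 to 12.7 ± 4.71 CPM, gst-6, from 22.2 ± 5.39 to 57.8 ± 14.3 CPM, and gst-27, from 94.9 ± 26.4 to 255 ± 68.7 CPM (adjusted p = 0.000399, 0.00265 and 0.00373). Neither gst-6 nor gst-27 was called with that covariate (adjusted p = 0.0645 and 0.0643). The P-glycoprotein genes pgp-1 and pgp-9, drug efflux pumps, rose from 43.71 ± 16.22 to 274.4 ± 122.6 CPM and from 29.4 ± 11.6 to 126 ± 63.4 CPM (adjusted p = 0.000317 and 0.002). For pgp-1, which is also an intestine marker, the change was 1.76 with the intestine marker covariate (adjusted p = 0.00152).

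Of 21 tested metal response genes, 3 were called higher and none lower. The list median was 0.03, and it was -0.30 on the TPM scale and -0.09 with the intestine covariate. Among the called rises, the cadmium-responsive genes cdr-4 and cdr-2 rose by 2.69 ± 0.36 and 2.65 ± 0.35 on the log2 scale. The level of cdr-4 was lower in OE (30.3 ± 7.63 CPM) than in gas-1 (94.4 ± 56 CPM, adjusted p = 0.0236). Among antioxidant enzymes, 3 of 25 were called higher and none lower, with a median of 0.18 that was -0.18 on the TPM scale. The gene msra-1, for a methionine sulfoxide reductase that repairs oxidised proteins, rose from 51.5 ± 12.7 to 139 ± 39.9 CPM (adjusted p = 0.00221) and was also lower in OE than in gas-1 (log2 -1.43, adjusted p = 0.00495). The catalase gene ctl-1 rose by 1.02 ± 0.22 on the log2 scale (adjusted p = 0.00925).

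Carboxylesterases outside the cest-2 genes had 7 of 26 members called higher and 1 lower, with a median of 0.96 (0.51 on the TPM scale). With the intestine covariate 1 was called higher and the median was 0.18. The gene cest-13 measured 17.3, 19.7, 24.4, 18.8 and 18.2 CPM in wild type and 64.7, 28.8, 76.2, 79.4 and 67.1 CPM in OE, with OE replicate 2 lowest but still above wild type (log2 1.68 ± 0.30, adjusted p = 0.00313). The gut esterase gene ges-1, also an intestine marker, rose from 61.9 ± 20.6 to 135 ± 43.8 CPM (adjusted p = 0.0239, and 0.0632 and 0.0695 without OE replicate 1 or 4). The gene cest-8 rose by 2.85 ± 0.37 on the log2 scale (adjusted p = 0.0003), but 495 of its exon bases overlap cest-9.2 on the same strand. The called fall, cest-24, had 13.8 ± 15 CPM in wild type and 0.283 ± 0.632 CPM in OE, and lost its call without any of 6 single libraries.

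Lysozymes, which break down bacterial cell walls, had 6 of 12 genes called higher and none lower, with a median of 1.00 (0.62 on the TPM scale). Only 2 were called higher with the intestine covariate, and the median was 0.40. The gene lys-4 measured 1067, 1998, 2572, 1987 and 1427 CPM in wild type and 7492, 3901, 8068, 8404 and 9360 CPM in OE. The lowest OE library was replicate 2, and it was above every wild-type library. It rose by 2.04 ± 0.27 on the log2 scale (adjusted p = 0.000318), beside 0.50 ± 0.26 from wild type to gas-1 (adjusted p = 0.173) and 1.54 ± 0.27 from gas-1 to OE (adjusted p = 0.00573).

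The less abundant lysozyme gene lys-5 measured 13.7, 13, 22.7, 22.7 and 14 CPM in wild type and 73.1, 40.1, 131, 107 and 120 CPM in OE. The groups did not overlap, and the gas-1 mean of 13.6 ± 4.35 CPM was within the wild-type range. The log2 fold change of lys-5 was 2.45 ± 0.32 against wild type (adjusted p = 0.000317) and 2.79 ± 0.33 against gas-1 (adjusted p = 0.000215).

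C-type lectins, sugar-binding proteins of which many are secreted by the intestine, had 24 of 85 genes called higher and 6 lower, with a median of 0.85 (0.35 on the TPM scale, 0.03 with the intestine marker covariate, where 6 were called higher and 3 lower). The gene clec-50 measured 961, 1374, 1426, 1854 and 813 CPM in wild type and 4508, 2426, 4290, 5593 and 4125 CPM in OE. It was higher in every OE library than in any wild-type library, with a log2 fold change of 1.70 ± 0.26 (adjusted p = 0.00109) and of 1.72 ± 0.26 against gas-1 (adjusted p = 0.00264). The gene clec-4 rose from 50.3 ± 17.6 to 230 ± 84.7 CPM (adjusted p = 0.000394) and stood at 649 ± 174 CPM in gas-1, with a log2 fold change of -1.49 from gas-1 to OE (adjusted p = 0.0141). In the other direction, clec-47 had a log2 fold change of -2.38 ± 0.33 (adjusted p = 0.000402).

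Saposin-like proteins, which act on lipid membranes, had 7 of 16 genes called higher and 1 lower, with a median of 0.94 (0.64 on the TPM scale, and 0.26 with 1 called rise with the intestine covariate). The gene spp-18 rose from 23 ± 10.6 to 103 ± 28.9 CPM (adjusted p = 0.000317) and spp-17 from 49.39 ± 13.48 to 121.5 ± 43.86 CPM (adjusted p = 0.00699), and spp-17 was called against gas-1 too (log2 1.12, adjusted p = 0.0416). The called fall, spp-12, was lost on leaving out any of 9 of the 10 libraries. Genes named for induction by infection or for regulation downstream of daf-16 were mixed, with 7 of 39 called higher and 6 lower and a median of 0.01, which was -0.07 on the TPM scale and -0.26 with the intestine covariate. The infection response gene irg-4 measured 66.3, 149, 81.9, 118 and 83.0 CPM in wild type and 26.3, 8.55, 26.8, 22.7 and 17.6 CPM in OE, a fall of 2.29 ± 0.29 on the log2 scale (adjusted p = 0.0003). No OE library came near the wild-type range, and the gas-1 libraries, at 91.5 ± 20.2 CPM, were not called against wild type (adjusted p = 0.777).

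Cathepsins and aspartyl proteases, the digestive and lysosomal proteases, had 12 of 24 genes called higher and 2 lower (asp-14, and asp-12, whose call was lost without wild-type replicate 2 at adjusted p = 0.0502), with a median of 0.87 (0.52 on the TPM scale). With the intestine covariate 4 were called higher and 2 lower, and the median was 0.19. The largest rise among the genes named by size was in asp-8, an aspartyl protease gene. It measured 1.92, 1.12, 1.03, 3.26 and 3.99 CPM in wild type and 38.02, 30.5, 88.0, 117 and 44.2 CPM in OE. The log2 fold change was 4.85 ± 0.53 (adjusted p = 7.04e-05), with the groups far apart, and the gas-1 libraries had 34 ± 16.8 CPM. The cathepsin B-like gene cpr-4 measured 348, 558, 632, 671 and 336 CPM in wild type and 2452, 948, 2120, 2280 and 2301 CPM in OE (log2 1.99 ± 0.27, adjusted p = 0.000402). OE replicate 2 was the lowest of its group there, too.

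The autophagy receptor gene sqst-1 rose from 23.9 ± 8.17 to 62.8 ± 18.9 CPM (adjusted p = 0.00882), the only call among 27 autophagy genes. Its call was lost with the intestine covariate (adjusted p = 0.248) and without wild-type replicates 1, 2 and 4 (0.0536). The autophagy median was -0.20 (-0.51 on the TPM scale, -0.27 with the intestine covariate), and 9 of the 27 genes had a positive change. The xenobiotic-sensing nuclear receptor gene nhr-8 rose from 20.0 ± 7.72 to 63.2 ± 18.8 CPM (adjusted p = 0.00344). It was 1 of 10 called rises, beside 2 called falls, among 164 nuclear hormone receptors. Over all tested genes, 7.09% were called higher and 2.24% lower. The receptor median was 0.41 and turned to -0.03 on the TPM scale and -0.21 with the intestine covariate. The lipid regulator nhr-49 was at 53.1 ± 6.41 CPM in wild type and 58.9 ± 4.46 CPM in OE and was not called. None of 80 cytosolic ribosomal protein genes was called in edgeR, in DESeq2 or at an unadjusted p under 0.05 (0 in each case), with a median of 0.06 that was -0.31 on the TPM scale. Of 33 proteasome genes, 1 was called, the ubiquitin receptor gene rpn-10, which fell by 0.49 on the log2 scale (adjusted p = 0.0196, and 0.0601 to 0.131 without wild-type replicate 1, 2 or 5 or OE replicate 4). The proteasome median was -0.33 (-0.71 on the TPM scale, -0.05 with the intestine covariate), 1 of the 33 genes had a positive change, 13 had an unadjusted p under 0.05, and DESeq2 called 3 lower.

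The cystathionine gamma-lyase gene cth-1, of the pathway from methionine to cysteine, rose from 32.8 ± 13.4 to 149 ± 61.0 CPM (adjusted p = 0.00265, and 0.0922 with the intestine covariate). It was the 1 called rise, beside 1 called fall, among 23 tested genes of propionate and methionine metabolism (median 0.21, and -0.18 on the TPM scale). Over all tested genes, 7.09% were called higher and 2.24% lower. The alcohol dehydrogenase gene adh-1 measured 111, 165, 80.3, 310 and 53.7 CPM in wild type and 484, 328, 588, 1081 and 651 CPM in OE. Each OE library was above each wild-type library (log2 2.12 ± 0.52, adjusted p = 0.0184, and 0.0532 without OE replicate 4). With the intestine and germline covariates adh-1 was not called (log2 1.15 and 1.53, adjusted p = 0.34 and 0.0544). It was 1 of 3 called rises, with none called lower, among 21 tested glycolysis and lactate genes (median 0.17, and -0.20 on the TPM scale). In gas-1, adh-1 averaged 77.8 ± 52.6 CPM, and OE exceeded it by 3.01 on the log2 scale (adjusted p = 0.00724).

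**Figure D4:**
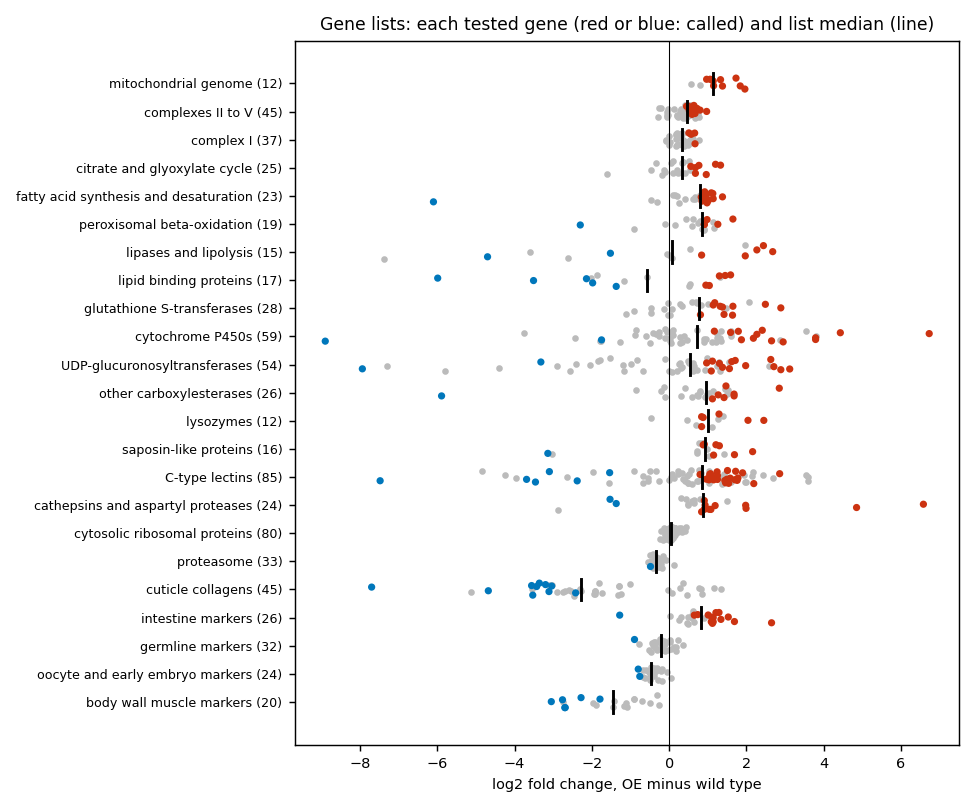
Log2 fold change of OE against wild type for each tested gene of 23 lists, with the number tested in brackets; red and blue points are called higher and lower, grey points are not called, and the line is the list median. The line stands at 1.14 for the mitochondrial genome and at -2.28 for the cuticle collagens, and near 0 for cytosolic ribosomal proteins.

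Among the largest falls, dhs-26, a short-chain dehydrogenase gene, measured 221.9, 209.2, 141.8, 293.9 and 128.3 CPM in wild type and 2.33, 2.15, 0, 1.02 and 17.1 CPM in OE. It had a log2 fold change of -5.36 ± 1.02 (adjusted p = 0.00451), and a mean of 2.64 ± 3.61 CPM in gas-1. The whole family had 5 of 27 genes called lower (dhs-2, dhs-19, dhs-20, dhs-26 and dhs-31) and none higher, with a median of 0.03 that was -0.39 on the TPM scale. The calls of dhs-2, dhs-20 and dhs-31 were lost on leaving out any of 5 or more single libraries, wild-type replicate 1 among them (adjusted p = 0.0799, 0.0683 and 0.0705). The gene T22B7.7 measured 9.44, 3.26, 10.4, 20.4 and 75.7 CPM in OE, so that replicate 5 set the mean (23.8 CPM, and 10.9 CPM without it). It fell from 527 ± 171 CPM in wild type (log2 -4.45 ± 0.78, adjusted p = 0.00271), and C30G12.2 from 286 ± 54.9 to 43.5 ± 34 CPM (-2.71 ± 0.38, adjusted p = 0.000402). Both were similarly low in gas-1, with changes of -5.08 and -2.54 from wild type (adjusted p = 0.000575 and 0.000296).

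A different order held for Y49E10.16 (chromosome III, 12430509 to 12433866, plus strand). It measured 42, 62.9, 74.5, 100 and 63.8 CPM in wild type and 102, 51.9, 100, 80.6 and 93.8 CPM in gas-1. In OE it measured 4.78, 2.56, 3.20, 3.39 and 10.6 CPM, below every library of the other groups. The log2 fold change was -3.77 ± 0.37 against wild type (adjusted p = 2.77e-05) and -4.09 ± 0.38 against gas-1 (adjusted p = 1.82e-05). The glucocerebrosidase homologue gba-2 fell from 119.2 ± 62.98 to 12.8 ± 8.26 CPM (adjusted p = 0.000317), through 46.1 ± 12.4 CPM in gas-1, and was called in each of the 3 comparisons.

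Some genes were at or near 0 in a whole group. In OE, C02B8.3 and F54E4.2 had 0 counts in all 5 libraries against 22 to 52 and 21 to 171 counts per wild-type library. Against a floor of 3 counts per OE library they were at least 12.9-fold and at least 14.7-fold lower. For T05A8.3, a summed count of 1 in OE stood against 385 in wild type, a depth-scaled ratio of 308 with a 95% counting interval of 55 to 12204. In the opposite direction cyp-13A11 had 554 counts in OE and 5 in wild type, a ratio of 138 (59 to 428). These intervals cover counting error only.

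The called genes among cuticle collagens and body wall muscle markers were lower in OE, and their levels moved with the wild-type libraries that had the highest muscle marker means. Of 45 tested collagens 10 were called lower and none higher, with a median of -2.28, which was -0.10 without wild-type replicates 1, 2 and 4. The adult cuticle collagen gene col-140 measured 3248, 1402, 34.2, 3847 and 470 CPM in wild type and 56.7 to 675 CPM in OE, so replicate 3 of wild type was below all OE libraries. Its call (adjusted p = 0.045) was lost on leaving out any of 7 of the 10 libraries, with adjusted p of 0.0634 to 0.115. Of 20 body wall muscle markers 6 were called lower and none higher, with a median of -1.45 that was -0.03 without those 3 libraries. Their summed level was 401 to 4344 CPM in wild type and 237 to 790 CPM in OE, and no member was at 0 in a whole group. Those 3 libraries had the highest muscle marker means, so leaving them out shrinks the muscle marker difference by construction and does not test its cause. With the muscle marker mean as a covariate, no collagen was called and the collagen median was -0.16. The myosin heavy chain gene unc-54 measured 219, 138, 14.1, 362 and 66.3 CPM in wild type and 9.76, 13.8, 67.0, 17.2 and 15.6 CPM in OE (adjusted p = 0.0182, and 0.0515 and 0.0538 without OE replicate 1 or 4).

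Of the intestine markers, 14 of 26 were called higher and 1 lower (the ferritin gene ftn-1, adjusted p = 0.0483, lost without any 1 of 9 libraries), with a median of 0.82, and 15 of the 26 are also in other lists described here. The median was 0.49 on the TPM scale and 0.94 without wild-type replicates 1, 2 and 4. Germline markers had 1 of 32 called lower and none higher (nos-2, median -0.22), and oocyte and early embryo markers 2 of 24 lower and none higher (spn-4 and pos-1, median -0.46). Each of these 3 calls was lost on leaving out any of 7 or 8 single libraries.

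The gas-1 mutants, given side by side, had 2268 of 10585 genes (21.4%) called against wild type, and OE had 168 (1.59%) called against gas-1 (514 in DESeq2). Among the 130 named genes called between OE and wild type, 90 higher and 40 lower, 19 were also called between OE and gas-1. Both comparisons use the same OE libraries, and most named genes were picked for their call against wild type. The count of 19 cannot therefore be weighed against the 1.59% of all genes. Of the 19, lys-5, lys-4, clec-50, spp-17 and adh-1 were higher in OE than in both other groups, and Y49E10.16, irg-4, ugt-41, gba-2 and clec-47 were lower than in both. By contrast cdr-4, msra-1, clec-4, cyp-33E2 and zipt-2.3 were above wild type in OE but below gas-1.

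Library choice and tissue covariates changed the number of genes called. Most named genes were picked for being called in this comparison. Calls or signs that they kept in refits of the same libraries are therefore no independent check. Without wild-type replicates 1, 2 and 4, which leaves 2 wild-type libraries, 126 genes were called higher and 18 lower. With the intestine marker mean as a covariate, 103 were higher and 71 lower, and without OE replicate 2, 1258 were higher and 372 lower. Of the 130 named genes that were called, 41 were called under all 30 alternatives, 49 without wild-type replicates 1, 2 and 4, 61 with the intestine covariate and 127 without OE replicate 2. Those called under all alternatives include asp-8, cyp-13A12, ugt-62, lipl-3, lipl-5, pgp-1, lys-4, lys-5, clec-50, cts-1, acl-4, acox-1.2 and Y49E10.16.

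**Figure D5:**
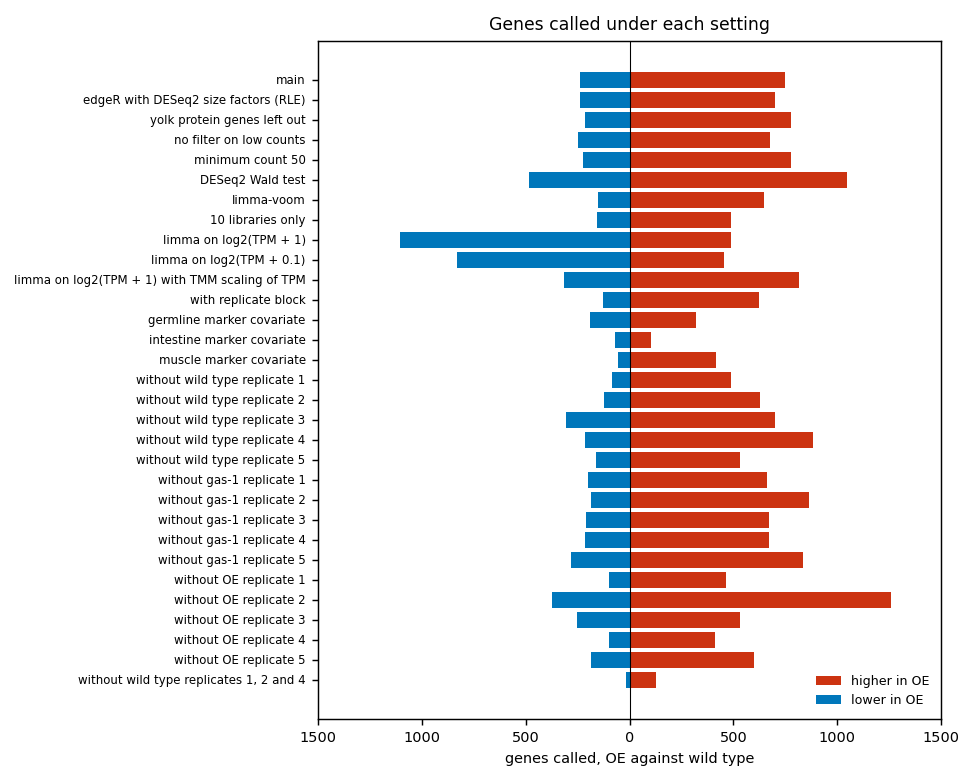
Number of genes called higher (red, to the right) and lower (blue, to the left) in OE against wild type under the reported fit and each of 30 alternatives. The reported fit has 751 higher and 237 lower; lower calls outnumber higher ones only on TPM values without TMM scaling.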

How the data were processed

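Dissected intestines were sequenced from 15 samples, 5 per strain, and the 10 wild-type and gas-1 cest-2.2 OE libraries are compared here. Per the submitters' processing notes, the tools were bcl2fastq 2.20 and kallisto 0.44.0 with build WBcel235. The annotation release is not given in the sources used here. Per the labels' protocols, libraries were made by Smart-seq2 and keep no strand. The authors deposited expected counts, which are estimated and not normalized. The authors also deposited TPM, which is scaled by transcript length to a common total. Other deposited values are transcript lengths. Targets (61451) carry integers, which were read as line numbers from 0 of the deposited transcript map. Lengths then equalled those of 99.95% of 27886 non-coding transcripts in the Ensembl annotation, against 51.81% with the map moved by 1 line. The authors' deposited comparison table was not used.

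Expected counts were summed over 46904 genes and rounded. Symbols came from the gene name table by gene ID (44017 matched), and positions from the Ensembl annotation. Differences were tested in edgeR (version 4.0.16, under R 4.3.3) after TMM normalization, a filter by filterByExpr (min.count 10) and a quasi-likelihood test on all 15 libraries in 3 groups (12 residual degrees of freedom, common biological coefficient of variation 0.527). Adjusted p-values are Benjamini-Hochberg over all tested genes. Single values were also tested by exact two-sided permutation. Alternatives used DESeq2 1.42.0, limma 3.58.1 on voom weights or on log2(TPM + 1) and log2(TPM + 0.1), other scalings, filters, covariates and left-out libraries. The script was tested on simulated data. The 52 gene lists, the group members and the doubted libraries were chosen with earlier results of these data known. No set test was run, and lists are described by counts and medians beside those of all genes.

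Named by rule were gas-1 with the genes of the cest-2 group. The rule then took the 15 largest rises and falls among called genes whose groups do not overlap and whose mean log2 CPM is 3 or more. It took up to 3 called genes per list by adjusted p, and the 5 genes with the highest TPM. It also took genes with at most 3 counts in every library of a group and at least 20 in every library of the other. Some of these appear only in counts. Other genes in the text, and the members spelled out for counts of 5 or fewer, were chosen after their values were seen. No 2 libraries agreed within sampling noise. The labels give no batch or date.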

Additional observations from a re-analysis of the deposited data

Results flagged for a closer look

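In 16 of 290 groups of 5 values checked, 1 library stood apart from the other 4 by a gap of more than 0.71 of the range of the group (Dixon's 95% critical value). Chance gives about 1 in 20. OE replicate 2 gave 10 of them. It was the lowest OE library for gst-27 (133 CPM, the others 273 to 295, gap 0.906 of the range), ilys-5 (4507, others 9067 to 10196, 0.856), pho-1 (61 CPM, others 133 to 153, 0.849), cpr-4 (948, others 2120 to 2452, 0.847), cest-13 (28.8, others 64.7 to 79.4, 0.798), his-25 (6.05, others 9.47 to 10.9, 0.766), lys-4 (3901, others 7492 to 9360, 0.746), gpx-7 (21 CPM, others 40.5 to 51.9, 0.725) and fat-2 (969, others 1767 to 2234, 0.719). It was the highest for col-96, with 0.0581 CPM where the others had 0 (gap 1.0).

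OE replicate 5 had the largest total, 45896053 against 12785262 to 19437969 (0.799), the largest mitochondrial share, 2.02% against 1.25 to 1.41% (0.792), and the only reads of T05A8.3, 0.0249 CPM against 0 (1.0). In wild type, replicate 1 was highest for hypodermis and cuticle markers, at a mean log2 CPM of 4.02 against 2.13 to 2.61 (0.743), and lowest for ugt-2, at 12.5 CPM against 19.9 to 22.8 (0.775). Wild-type replicate 2 was lowest for pharynx markers, at -2.08 against 1.35 to 2.68 (0.72).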

How the results depend on the processing

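Between OE and wild type, 988 genes were called, 751 higher and 237 lower. DESeq2 called 1535 (485 lower), limma-voom 153 lower, and the fit of the 10 libraries alone 644 (488 higher, 156 lower). On log2(TPM + 1), limma called 1597, 491 higher and 1106 lower, and on log2(TPM + 0.1) 456 higher and 833 lower, with the median over all genes at -0.37 and -0.44. With a germline marker covariate 509 were called (318 higher), with a muscle marker covariate 471 (417 higher, 54 lower) and with an intestine marker covariate, chosen after the data were seen, 174 (103 higher, 71 lower). Leaving out wild-type replicates 1, 2 and 4 left 144 (126 higher, 18 lower). Leaving out 1 library at a time gave 512 to 1630 called, 413 to 1258 higher and 84 to 372 lower, with the highest counts without OE replicate 2, the lowest totals without OE replicate 4 and the fewest lower calls without wild-type replicate 1. DESeq2 called 514 genes between OE and gas-1, against 168 in edgeR.

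The change of gas-1 was no longer called on log2(TPM + 1) (0.45, adjusted p = 0.0596), on log2(TPM + 0.1) (0.46, adjusted p = 0.0604), with the intestine covariate (0.41, adjusted p = 0.34) or without wild-type replicates 1, 2 and 4 (1.01, adjusted p = 0.0995). That of cest-2.2 was lost with the germline (1.17, adjusted p = 0.062), intestine (0.64, adjusted p = 0.271) and muscle (1.49, adjusted p = 0.0503) covariates and without those 3 libraries (1.37, adjusted p = 0.173). The causes of these changes were not tested. Of the 130 called named genes, clpp-1 alone changed sign, to -0.0 on both TPM scales (adjusted p = 0.987 and 0.99).

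Same-numbered OE and wild-type libraries deviated together with correlations of -0.336 to 0.12, and only number 4 matched its own number best, so they share a number and are not pairs. With the replicate block, 753 genes were called, 626 higher and 127 lower. With 5 libraries a group, no exact permutation p can fall under 0.00794.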

Other observations

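Shares of called genes were counted by chromosome. Of the tested genes, 3.85% on chromosome I and 4.3% on III were called higher, against 7.26% on II, 8.48% on IV, 8.54% on X and 9.74% on V. Of 15 tested genes of the mitochondrial genome, its RNA genes included, 11 (73.3%) were called higher. Called falls made up 1.37% on I and 3.15% on X. Among windows of 1000000 bases, the one from 19000001 to 20000000 on chromosome V had the highest share of rises, 15 of 70 tested genes (21.4%). It holds the lectin genes clec-49 and clec-50, the aspartyl protease gene asp-17 and the nuclear receptor gene nhr-79, whose call was lost without OE replicate 1 or 4 (adjusted p = 0.0546 and 0.0634). On chromosome II, 12 of 71 genes (16.9%) from 1000001 to 2000000 were called higher. The windows were ranked by these shares, and no test was run on the chromosome or window shares.

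By gene type, 735 of 10232 protein-coding genes were higher and 233 lower, and 11 of 241 pseudogenes were higher and 3 lower.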
